A study of Mus musculus with 214 samples.

Results

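The liver of Mgmt-/- mice was examined 5 days after exposure to N-nitrosodimethylamine (NDMA), in 14 of the 214 libraries of the series, of which 213 have values in the tables used here. These are all libraries of Mgmt-/- mice collected at day 5, 8 from NDMA mice and 8 from saline mice, less 2 saline libraries. The libraries were selected on the normalized count of Kap, an androgen-regulated transcript of the kidney proximal tubule, and those over 1000 were left out. Kap was at 6147 and 7562 in the 2 libraries left out and at most 1.80 in the 6 saline libraries kept, was 0 in the NDMA libraries, and reached 13.9 in the highest of the other Mgmt-/- libraries. These values chose the libraries and were not tested. The genes described are the 9306 of 19540 in the Mgmt-/- data whose mean over the 14 libraries was at least 5 normalized counts.

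The mice were on the C57BL/6 background, were all RaDR+/+;GPT+/+, that is, homozygous for a recombination reporter and a mutation reporter, and lacked Mgmt, the gene of O6-methylguanine DNA methyltransferase, saline mice included. NDMA was injected into the peritoneum at 3.5 mg/kg on postnatal day 8 and at 7 mg/kg on postnatal day 15, and the controls received saline on the same days. Livers were collected 5 days after the second injection, from 4 female and 4 male NDMA mice and, among the libraries kept, 3 female and 3 male saline mice. The paper states that litters were assigned to a treatment at birth. It also calls the controls sibling littermates and says that separate litters were used where possible. The labels do not say which mice were littermates, so litter and treatment cannot be told apart here.

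NDMA is a small nitrosamine that reaches people through diet, water and drugs. In the liver it is activated mainly by the cytochrome P450 CYP2E1, which is made by the hepatocytes around the central vein, and the product methylates DNA. MGMT removes the methyl group from O6-methylguanine in a single step that uses up the protein. Where the lesion persists it pairs with thymine, and futile mismatch repair, stalled replication, p53 signalling and cell death are known to follow. Damaged DNA that reaches the cytosol can in turn switch on interferon genes.

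RNA was read as 3′ digital gene expression libraries, in which each read comes from the 3′ end of a transcript, and values are normalized counts, that is, reads of a gene divided by the size factor of the library. Reads on genes ranged from 2212244 to 4170192 in the NDMA libraries and from 2393181 to 4959721 in the saline libraries, and an exact two-sided permutation test did not separate their means (p = 0.886). The NDMA libraries held reads of 13232 to 13846 genes against 12496 to 13538 in saline (exact permutation p = 0.0147, 0.0220 after adjustment over the 3 measures compared). The 50 most abundant genes took 43.2% to 45.7% of the reads in the NDMA libraries and 46.7% to 51.5% in the saline libraries (exact permutation p = 0.000666, adjusted 0.00200). The ranges of depth overlapped, while the NDMA libraries spread their reads over more genes and put a smaller share on the most abundant ones.

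The labels were checked against defining genes. Alb, the serum albumin gene and the most abundant hepatocyte marker, was at 134310 to 150860 (median 141340) in saline and 84845 to 149830 (median 103790) in NDMA livers, and the summed level of 7 hepatocyte markers ran from 317500 to 427730 in saline and from 224710 to 280200 in NDMA livers. The summed level of 4 other kidney genes (Umod, Slc34a1, Slc12a1 and Fxyd2), which the choice of libraries did not use, was at most 7.19 in saline and 4.87 in NDMA livers, and none reached the mean needed for a test. The 2 saline libraries left out went against their liver label in these genes, with a sum of 16013 and 17352 for the 4 kidney genes and of 2506 and 1722 for the 7 hepatocyte markers, and Alb at 526 and 161. Mgmt was at 0 to 1.80 in saline and 0 to 3.65 in NDMA livers and was likewise below the mean needed. No WT level is set beside it here, so these low values do not settle the genotype label. Correlations of log2 values between libraries were 0.920 to 0.957 within saline, 0.944 to 0.963 within NDMA and 0.872 to 0.926 between the groups, and the first principal component held 39.7% of the variance. The median SD of log2 values per gene was 0.411 among saline and 0.372 among NDMA mice.

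The sample numbers in the labels follow treatment. The 6 saline libraries carry numbers 18 to 48 and the 8 NDMA libraries numbers 54 to 96, so anything shared by neighbouring numbers cannot be told apart from NDMA. The correlation of residuals within blocks of 12 numbers was 0.191. With these blocks as a correlated block, an alternative chosen after seeing the data, 921 genes were higher and 545 lower in NDMA livers.

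In 17.8% of the genes tested the normalized count changed with NDMA, 1037 higher (11.1%) and 624 lower (6.71%). A change was called by limma on log2(normalized count + 1) with sex as a term, where the p adjusted by Benjamini-Hochberg was under 0.05 and the log2 fold change was over 0.58 in either direction. The fold changes below carry their standard errors and are on that scale, which understates the change of low genes. The median fold change over all genes tested was 0.03. When the libraries were brought to an equal total it was 0.17, and 1451 genes were higher and 412 lower, so that 77.9% of calls were higher against 62.4%. At unadjusted p under 0.05 there were 3144 genes. Of the called genes 190 rose by at least 2 on the log2 scale and 62 fell by at least 2. All NDMA libraries stood above all saline libraries in 558 genes (6%) and below them in 301 (3.23%), together 9.23% of genes tested. Among the genes tested, 459 had a saline mean under 5 and reached the minimum through the NDMA livers alone, 229 of them called higher, and 215 reached it through the saline livers alone, 69 of them called lower. Such genes had to differ in level to be tested, so their fold changes and p-values below are descriptions. The counts and medians of the lists below likewise describe the members tested. Each count is to be read beside 11.1% higher and 6.71% lower among all genes tested. The number of such genes is given for the lists that hold 3 or more and for some others.

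On the scale of log2(normalized count + 1) the largest rise was in Ubd, which encodes the ubiquitin-like modifier FAT10. It was at 1.20 to 11.1 (median 4.10) in saline and 306 to 1038 (median 552) in NDMA livers, a log2 fold change of 6.89 ± 0.36 (adjusted p = 6.22e-09) and a ratio of means of 132. Gsta1, a glutathione S-transferase that detoxifies electrophiles, was listed at 0 in 5 of the 6 saline livers and at 1.82 in the other, and lay at 54.8 to 180.2 (median 101) in NDMA livers (6.43 ± 0.29, adjusted p = 1.20e-13). It rested on 2 reads in all saline livers and 1260 in NDMA livers, a ratio of 436.8 with an exact 95% interval of 120.7 to 3611 for counting error only. The order of the first 2 genes turned with the scale, as Gsta1 stood above Ubd by edgeR (8.34 and 7.00), and likewise by DESeq2 and with a pseudocount of 0.5. Cbr3, a carbonyl reductase, was at 0 to 4.71 (median 2.61) in saline and 56.3 to 129 (median 99.3) in NDMA livers (4.99 ± 0.36, adjusted p = 3.55e-09). In each of these genes the lowest NDMA liver was far above the highest saline liver, and only genes without overlap were ranked. Ubd, Gsta1, Cbr3 and Cidec, below, had a saline mean under 5 and reached the minimum for a test through the NDMA livers alone. The other genes of largest rise were Cox6b2, the testis form of a cytochrome oxidase subunit (2.73 to 21.5 in saline, 131 to 242 in NDMA), Spink1, a trypsin inhibitor (fold change 4.58), Lcn2, the iron-carrier binding protein lipocalin 2 (4.51), Cidec, a lipid droplet protein (4.43), and Tff3, a trefoil peptide of mucosal repair (4.33).

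Among called genes without overlap the largest falls were in genes of granulocytes and in metabolic genes. In bulk RNA fewer cells of a type and less RNA per cell cannot be told apart. Prg2, the major basic protein of eosinophils, was at 15.5 to 108 (median 46.8) in saline and 0 to 2.16 (median 0.281) in NDMA livers (-4.86 ± 0.38, adjusted p = 9.59e-10), with 4 of the 8 NDMA livers at 0. Camp, the cathelicidin antimicrobial peptide of neutrophil granules, was at 20.05 to 131 (median 44.2) in saline and 0 to 4.39 (median 0.781) in NDMA livers (-4.60 ± 0.42, adjusted p = 1.15e-08). Ngp, another granule protein, was at 53.7 to 224 and 1.39 to 7.83 (-3.96). Saline livers varied widely in all 3 genes, and the NDMA livers were all low. Slc1a2, a glutamate transporter of the hepatocytes at the central vein, fell, with 86.995 to 132 (median 112) in saline and 2.77 to 22.2 (median 6.74) in NDMA livers (-3.81 ± 0.27, adjusted p = 1.55e-10). Among the others were Pnliprp1, a pancreatic lipase-related protein (21.4 to 123 in saline and 0 to 3.56 in NDMA), the carboxylesterase gene Ces4a (165 reads in saline and 3 in NDMA livers, a ratio of 79.3 with a counting interval of 26.7 to 388.6) and the cytochrome P450 gene Cyp2c69 (368 to 1339 in saline and 29.8 to 84.8 in NDMA, -3.77). None of these genes overlapped between the groups, which is how they were selected. Prg2, Camp, Pnliprp1 and Ces4a had an NDMA mean under 5 and reached the minimum for a test through the saline livers alone.

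**Figure D1:**
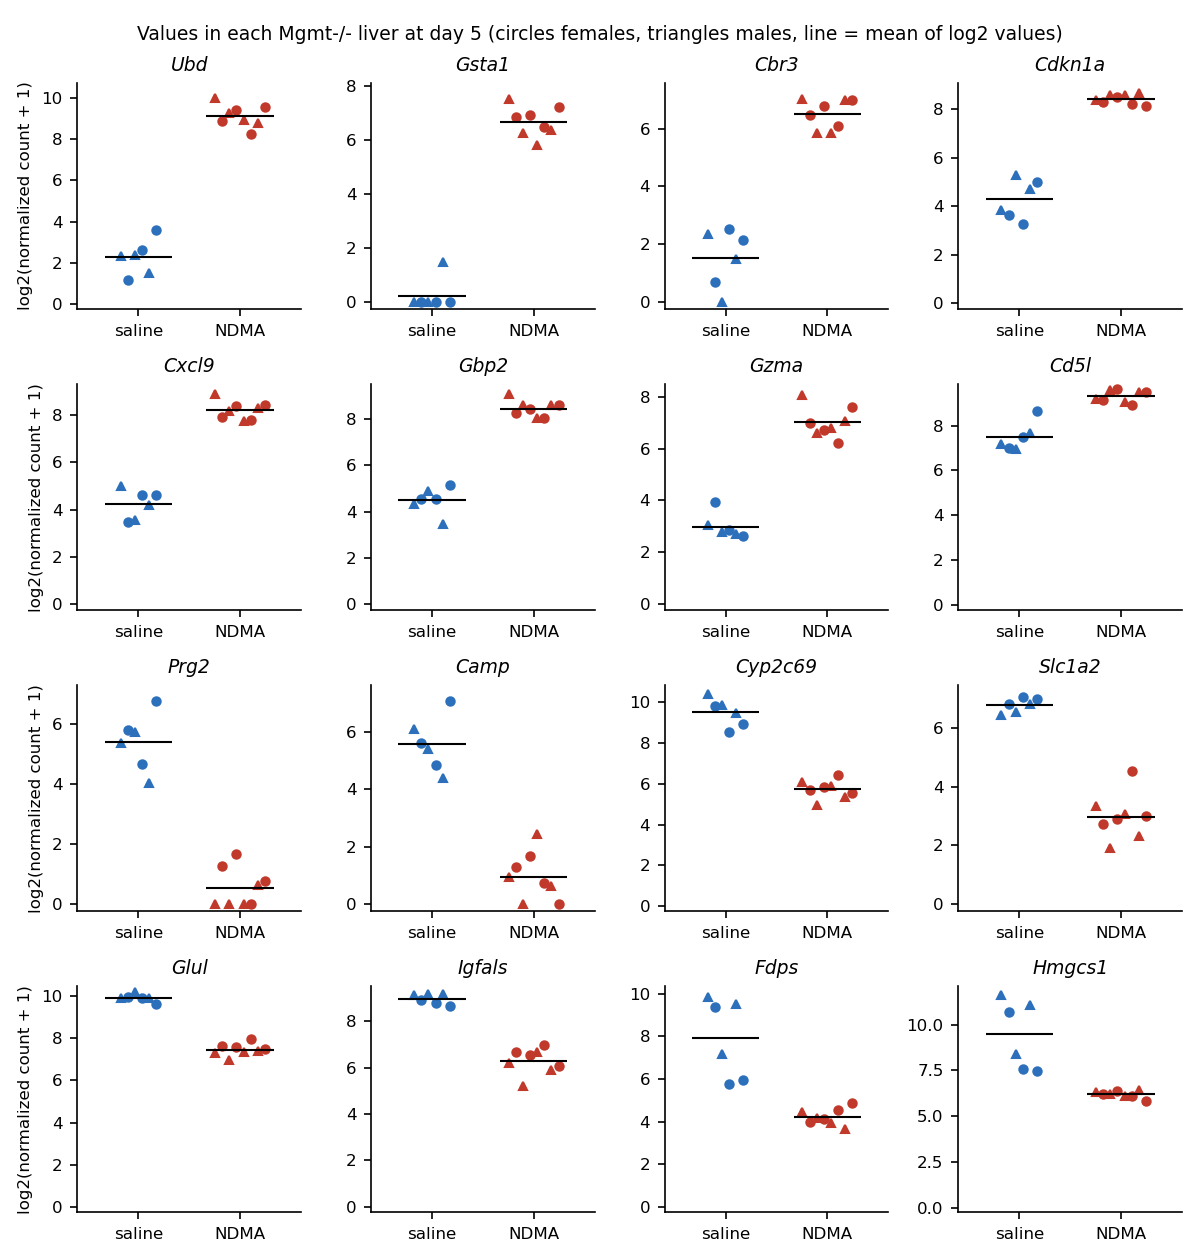
Normalized counts of 16 genes in each of the 14 libraries, as log2(value + 1) on the vertical axis, with saline in blue, NDMA in red, circles for females, triangles for males and a line at the mean of each group. The groups stand apart in each panel, and the saline livers are spread widely in Fdps and Hmgcs1 where the NDMA livers lie close together.

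Promoter sequences are shown for the 3 genes of largest rise and for Gbp2, Cxcl9 and Cxcl10, the 3 of largest rise among the interferon-inducible GTPases, type I interferon effectors and chemokines whose promoter held at least 1 of the motifs below, so that a match in these 3 follows from the choice. Each runs from 250 bases before to 50 after the transcription start in RefSeq on GRCm38.p6, 5′ to 3′ on the strand of the gene, with motif matches in capitals. The motifs searched on both strands were GAAANNGAA, the core of an interferon regulatory factor (IRF) element, TTCNNNGAA, an interferon-gamma activated (GAS) element, TGACNNNGC, an antioxidant response element, TGANTCA, an AP-1 site, and TATAAA, the letters of the TATA box. Ubd lies at chr17:37193642-37193941 on the plus strand, Gsta1 at chr9:78230419-78230718 (plus), Cbr3 at chr16:93682969-93683268 (plus), Gbp2 at chr3:142620413-142620712 (plus), Cxcl9 at chr5:92328030-92328329 (minus) and Cxcl10 at chr5:92348840-92349139 (minus).
Ubd: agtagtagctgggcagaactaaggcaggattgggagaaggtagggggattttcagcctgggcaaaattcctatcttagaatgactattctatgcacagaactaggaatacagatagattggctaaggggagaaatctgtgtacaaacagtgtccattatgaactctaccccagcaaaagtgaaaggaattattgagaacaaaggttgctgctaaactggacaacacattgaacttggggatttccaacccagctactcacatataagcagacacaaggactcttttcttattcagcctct
Gsta1: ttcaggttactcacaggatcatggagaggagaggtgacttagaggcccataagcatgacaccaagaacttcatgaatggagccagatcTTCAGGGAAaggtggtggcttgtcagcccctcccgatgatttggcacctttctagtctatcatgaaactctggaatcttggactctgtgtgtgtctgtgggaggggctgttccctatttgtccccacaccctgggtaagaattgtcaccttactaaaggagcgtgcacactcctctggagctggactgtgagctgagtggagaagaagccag
Cbr3: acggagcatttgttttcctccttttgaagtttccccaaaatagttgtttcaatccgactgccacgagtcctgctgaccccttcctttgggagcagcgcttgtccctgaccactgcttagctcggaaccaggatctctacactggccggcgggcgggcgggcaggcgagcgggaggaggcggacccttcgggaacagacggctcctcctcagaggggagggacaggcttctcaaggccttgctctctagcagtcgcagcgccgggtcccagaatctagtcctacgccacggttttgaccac
Gbp2: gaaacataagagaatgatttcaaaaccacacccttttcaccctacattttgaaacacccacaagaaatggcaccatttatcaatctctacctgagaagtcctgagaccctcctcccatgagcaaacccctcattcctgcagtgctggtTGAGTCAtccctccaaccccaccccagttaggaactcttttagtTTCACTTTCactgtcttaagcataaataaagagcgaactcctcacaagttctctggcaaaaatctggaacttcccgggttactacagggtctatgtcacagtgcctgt
Cxcl9: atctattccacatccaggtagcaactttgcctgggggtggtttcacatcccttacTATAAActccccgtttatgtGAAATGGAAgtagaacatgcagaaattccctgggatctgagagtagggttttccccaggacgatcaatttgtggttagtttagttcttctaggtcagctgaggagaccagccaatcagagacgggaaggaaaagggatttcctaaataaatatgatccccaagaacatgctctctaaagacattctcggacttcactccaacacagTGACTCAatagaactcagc
Cxcl10: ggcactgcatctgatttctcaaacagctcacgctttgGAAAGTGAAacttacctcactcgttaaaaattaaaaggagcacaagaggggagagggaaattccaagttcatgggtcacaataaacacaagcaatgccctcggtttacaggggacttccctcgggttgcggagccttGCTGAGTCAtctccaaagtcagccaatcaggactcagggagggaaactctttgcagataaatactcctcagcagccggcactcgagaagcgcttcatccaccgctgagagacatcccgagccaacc
Counted from the start, Gbp2 held an IRF element at -58 and an AP-1 site at -102, Cxcl9 an IRF element at -175, the letters TATAAA at -195 and an AP-1 site at 32, and Cxcl10 an IRF element at -213 and an antioxidant response element at -76 that overlaps an AP-1 site at -74. The capitals in Gsta1 are a GAS element at -162. In Ubd and Cbr3 none of the letters searched was in this window.

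The IRF letters were in 8.57% of the 27025 RefSeq promoters and in 7.62% of the 7424 promoters of genes tested. They were in 96 of the 801 promoters of genes called higher (12%) and in 36 of the 495 of genes called lower (7.27%). Among the interferon-inducible GTPases with a promoter they were in 8 of 9, among the type I interferon effectors in 10 of 17 and among the chemokines in 2 of 8. The GAS letters, in 6.91% of promoters of genes tested, were in 4 of 9 GTPase promoters, 2 of 17 of the type I effectors and 0 of 8 of the chemokines. A match of letters is a description of the sequence and was not tested for binding.

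Of 17 targets of p53 that arrest the cell cycle or feed back on p53, 14 were tested, 12 rose and none fell, with a median log2 fold change of 2.36, and in 11 of them all NDMA livers were above all saline livers. Of the 14, 5 reached the minimum through the NDMA livers alone, among them Eda2r, Phlda3 and Psrc1. Cdkn1a, the cyclin-dependent kinase inhibitor p21, was at 8.49 to 38.6 (median 19.4) in saline and 278 to 403 (median 348) in NDMA livers (4.13 ± 0.24, adjusted p = 1.07e-09). The NDMA livers held a narrow range, well above each saline liver, and the ratio of means was 16.2. Eda2r, a receptor of the TNF family, was at 0 to 0.822 in saline and 14.5 to 32.8 in NDMA livers (4.32 ± 0.31), which was 2 reads against 274 and a ratio of 95 with a counting interval of 26 to 788.3. Phlda3, an inhibitor of AKT, was at 0 to 5.96 and 29.3 to 43.9 (4.19 ± 0.33), and Psrc1, a spindle protein, at 0 to 2.40 and 11.3 to 28.04 (3.74 ± 0.35). Ccng1, cyclin G1, rose by 2.83. The 2 tested members that were not called were Gadd45a (0.29 ± 0.28) and Sesn1 (-0.28 ± 0.26), and Gadd45a had been called higher at day 1 and day 2 (1.28 and 1.45).

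Of 10 p53 targets that promote cell death 6 were tested and 4 rose, with a median of 0.93. Pmaip1 and Apaf1 reached the minimum through the NDMA livers alone. Pmaip1, the BH3-only protein NOXA, was at 0.852 to 5.66 (median 2.85) in saline and 13.3 to 36.4 (median 21.2) in NDMA livers (2.60 ± 0.31, adjusted p = 6.91e-07). Bax, the pore former of the mitochondrial outer membrane, rose by 1.72 ± 0.16, Apaf1, the apoptosome scaffold, by 1.14 ± 0.31 and the death receptor Fas by 0.73 ± 0.12, each without overlap between the groups. Ei24 and Perp were not called (0.33 and 0.24).

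Of 30 genes of DNA repair and damage signalling 23 were tested, 2 rose and 1 fell, beside 17.8% called among all genes tested, and the median was 0.21. Polk, the translesion polymerase kappa, was at 2.40 to 8.20 (median 3.82) in saline and 21.9 to 32.8 (median 25.02) in NDMA livers (2.41 ± 0.24, adjusted p = 3.18e-08), with all NDMA livers above all saline livers. Polk reached the minimum for a test through the NDMA livers alone. Ercc5, a nuclease of nucleotide excision repair, rose by 1.51 ± 0.38 with overlap, and Parp1, the break sensor, fell by 0.75 ± 0.20.

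Among genes of cell division and DNA replication 4 of 30 tested rose and 1 fell, beside 11.1% and 6.71% of all genes tested, with a median of 0.24. The 4 were Ccnb1 and Cdk1, the cyclin B1 and kinase that start mitosis (1.17 ± 0.31 and 1.01 ± 0.21), Mcm2, a subunit of the replicative helicase (0.90 ± 0.30), and Aurka, a spindle kinase (0.86 ± 0.24). Saline and NDMA livers overlapped in each of them, as in Tk1, the thymidine kinase that fell (-0.64 ± 0.17). Mki67 (-0.44 ± 0.31) and Top2a (0.45 ± 0.20), both made by cycling cells, were not called. With libraries at an equal total 9 rose and Tk1 was no longer called. With blocks of sample numbers as a correlated block, and likewise by edgeR, 3 rose and 1 fell.

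Of the 17 genes of interferon ligands, receptors and signalling 13 were tested and 5 rose, all of them transcription factors, with a median of 0.70. Irf8, an interferon regulatory factor of macrophages, was at 9.86 to 20.4 (median 15.6) in saline and 44.3 to 79.5 (median 62.5) in NDMA livers (1.91 ± 0.18, adjusted p = 1.46e-08). Irf7 rose by 1.78, Irf1 by 1.56 and Irf9 by 1.28, and in none of these did the groups overlap. The kinase Jak2 (0.85 ± 0.35) and the receptors Ifnar1 (-0.08 ± 0.23) and Ifngr1 (-0.06 ± 0.16) were not called. Ifnb1 was at 0 in all 14 livers, and Ifng was at 0 in all saline livers and at 0 to 4.89 in NDMA livers, both below the mean needed for a test.

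The guanylate binding proteins and immunity related GTPases, which attack intracellular vacuoles, rose together. All 16 tested of 18 listed were called higher, 14 of them without overlap, and their median was 2.49. With blocks of sample numbers as a correlated block, and likewise by edgeR, 15 were called higher. Of the 16, 4 reached the minimum through the NDMA livers alone. Gbp2 was at 10.02 to 34.9 (median 22.4) in saline and 259 to 533 (median 367) in NDMA livers (3.96 ± 0.22, adjusted p = 1.45e-10). Gbp4 was at 0 to 5.47 (median 2.08) in saline and 38.1 to 106 (median 48.7) in NDMA livers (4.17 ± 0.34, adjusted p = 3.80e-09), Gbp3 was at 18.1 to 28.8 and 152 to 238 (3.06 ± 0.14) and Tgtp1 at 0 to 3.41 and 15.1 to 37.3 (3.14 ± 0.32). Every NDMA liver was above every saline liver in these 4 genes. Gbp2b rose by 3.41, but it is a near copy of Gbp2, as Tgtp1 is of Tgtp2, and reads may be split between them.

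Type I interferon effectors, the antiviral genes, rose with a lower median. Of 30 genes 24 were tested and 21 rose, with a median of 1.55. Cmpk2, a mitochondrial nucleotide kinase, was at 0 to 10.2 in saline and 14.996 to 21.1 in NDMA livers (2.66 ± 0.37), Zbp1, the sensor of Z-form nucleic acids, at 42.7 to 81.8 (median 51.8) and 267 to 427 (median 333) (2.58 ± 0.15, adjusted p = 8.06e-12), and the ubiquitin-like modifier Isg15 at 2.36 to 7.16 and 12.4 to 75.6 (2.56 ± 0.32). Zbp1 was raised evenly over the 8 NDMA livers, whereas Isg15 varied among them. Cmpk2 and Isg15 reached the minimum for a test through the NDMA livers alone. Of the genes that sense nucleic acids in the cytosol 4 of 10 tested rose, Trex1, the exonuclease that clears DNA from the cytosol (1.79), Samhd1 (1.62), Ifi207 (1.58) and Tmem173, which encodes STING (1.09).

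Genes of antigen presentation were higher as well. In class I presentation and the immunoproteasome 11 of 17 tested genes rose (median 1.22). Tap1, a subunit of the peptide transporter, was at 2.05 to 10.2 (median 8.38) in saline and 28.7 to 54.6 (median 41.9) in NDMA livers (2.62 ± 0.27, adjusted p = 8.30e-08), and the immunoproteasome subunits Psmb9 and Psmb8 rose by 1.97 ± 0.14 and 1.90 ± 0.13. In class II presentation 6 of 7 tested rose (median 2.54). H2-Aa, a class II alpha chain, was at 67.7 to 168 (median 97.7) in saline and 407 to 1178 (median 732) in NDMA livers (2.86 ± 0.22, adjusted p = 3.05e-08) and the invariant chain Cd74 at 10.2 to 27.1 and 80.8 to 232 (2.77 ± 0.21). In both genes every NDMA liver was above every saline liver.

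Of 14 tested chemokines 12 were higher and 1 lower, with a median of 2.82, and 4 of the 14 reached the minimum through the NDMA livers alone. Cxcl9, which draws T cells through CXCR3, was at 10.2 to 30.7 (median 20.4) in saline and 211 to 468 (median 301) in NDMA livers (3.95 ± 0.24, adjusted p = 5.12e-10), and Cxcl10, a ligand of the same receptor, at 8.22 to 16.5 (median 13.6) and 126 to 279 (median 165) (3.64 ± 0.19, adjusted p = 5.41e-13). The promoters of both are shown above. Ccl7, which draws monocytes, rose by 3.80 ± 0.32 and Ccl4 by 3.45 ± 0.32, and Ccl8 went from 2 reads in saline to 165 in NDMA livers, a ratio of 57.2 with a counting interval of 15.6 to 476.3. Cxcl12, a chemokine of stromal cells, was the exception and was at 246 to 471 (median 290.5) in saline and 78.3 to 182 (median 131) in NDMA livers (-1.34 ± 0.20, adjusted p = 6.58e-05). Markers of T cells, cytotoxic cells and macrophages were higher in the same livers, with the values given below, and their part in the genes of presentation and in the chemokines was not tested. Among genes of lytic cell death 7 of 12 tested rose (median 0.83), led by Zbp1, by Casp1, the inflammasome protease (1.86 ± 0.25), and by Mlkl, the effector of necroptosis (1.85 ± 0.23), whose kinase Ripk3 was at 2.05 to 10.02 in saline and 10.7 to 21.1 in NDMA livers and also rose.

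Marker genes of T cells, NK cells and recruited macrophages were higher in NDMA livers. All 4 tested of 10 T cell markers rose (median 2.49, summed level 19.7 to 31.8 in saline and 102.5 to 214 in NDMA livers, Cd3d the most abundant) and all 6 tested of 10 markers of NK and cytotoxic cells (median 3.08, summed level 52.0 to 83.9 and 465 to 900.3, Ccl5 the most abundant). Of these, 1 T cell marker, Cd8b1, and 3 cytotoxic cell markers, among them Gzmb and Xcl1, reached the minimum for a test through the NDMA livers alone. None of these markers was at 0 in all 14 livers. Gzma, a granzyme of cytotoxic granules, was at 5.11 to 14.4 (median 5.94) in saline and 73.02 to 265 (median 119) in NDMA livers (4.03 ± 0.26, adjusted p = 2.25e-10). Gzmb was at 0 to 11.1 and 29.99 to 86.5 (3.64 ± 0.40), and Cd3d, a chain of the T cell receptor complex, at 0.822 to 11.99 and 30.6 to 87.1 (2.98 ± 0.40). All 10 tested of 12 markers of recruited macrophages rose (median 1.83), and their summed level was 403.7 to 576.1 in saline and 998.2 to 1901 in NDMA livers, most of it from Lyz2, the macrophage lysozyme. Of the 10, 4 (Ccr2, Cx3cr1, Gpnmb and Trem2) reached the minimum through the NDMA livers alone. Gpnmb and Lgals3, both made by lipid-laden and phagocytic macrophages, rose by 3.33 ± 0.47 and 2.87 ± 0.19. Of the B cell markers none of 2 tested was called. The only dendritic cell marker tested, Ccr7, rose by 2.09 ± 0.45 with overlap, and it reached the minimum through the NDMA livers alone.

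Markers of the resident macrophages, the Kupffer cells, split. Of 11 tested 6 rose and none fell (median 0.62), with a summed level of 823.9 to 1604 in saline and 1516 to 2208 in NDMA livers. Cd5l, a secreted scavenger protein and the most abundant of them, was at 125 to 403 (median 162) in saline and 482 to 798 (median 652) in NDMA livers (1.82 ± 0.22, adjusted p = 1.37e-05), and the scavenger receptor Marco was at 20.05 to 51.1 and 115 to 197 (1.94 ± 0.17). The most cell-restricted markers were not called, Clec4f at 213 to 412 (median 272) and 160.2 to 245 (median 211) (-0.48 ± 0.14), Vsig4 at -0.36 and Timd4 at 0.33. Clec4f and Vsig4 thus had medians below those of saline while Cd5l and Marco did not overlap between the groups.

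Genes of neutrophils and of red cell precursors were lower in NDMA livers. Of 10 neutrophil genes 6 were tested and 5 fell, all without overlap, with a median of -2.16 and a summed level of 233.8 to 964.1 in saline and 64.6 to 97.4 in NDMA livers. S100a9, a calprotectin subunit, was at 37.2 to 172 (median 62.5) in saline and 10.8 to 20.9 (median 13.5) in NDMA livers (-2.18 ± 0.27, adjusted p = 1.02e-06). Beside it and Camp and Ngp these were the other subunit, S100a8 (-1.86 ± 0.28), and Ltf, lactoferrin (-2.15 ± 0.36). Camp, Ngp and Ltf belong to the secondary granules that are made while neutrophils mature, and Retnlg, a gene of mature neutrophils, was not called (11.3 to 32.4 and 9.10 to 21.5, -0.63 ± 0.26). Of the red cell genes 6 of 7 tested fell (median -0.99), among them the anion exchanger Slc4a1 (-2.12 ± 0.45) and the globin genes Hba-a1 and Hba-a2, whose values are identical in the files (-0.99 ± 0.24). The summed level of the red cell list was 30324 to 68905 in saline and 14731 to 38615 in NDMA livers, with overlap. Camp and Ltf, and Slc4a1 of the red cell genes, reached the minimum for a test through the saline livers alone.

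**Figure D2:**
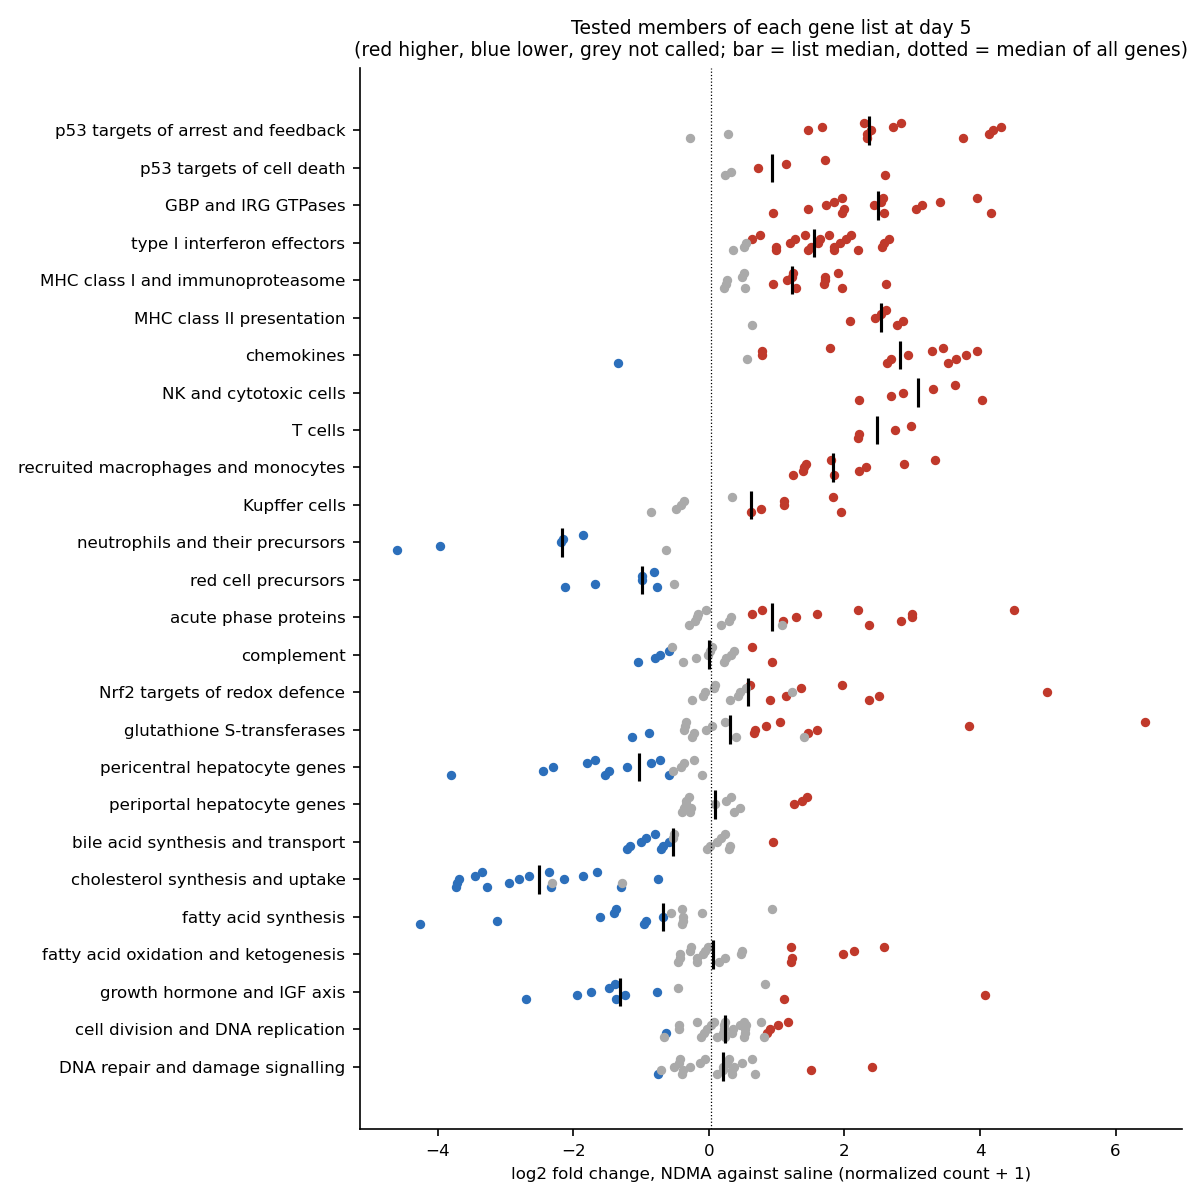
Log2 fold change of every tested member of 26 gene lists, NDMA against saline, on the horizontal axis, with called genes in red (higher) or blue (lower), others in grey, a bar at the list median and a dotted line at the median of all genes (0.03). Chemokines, GTPases, cytotoxic cell and p53 genes lie to the right, and cholesterol synthesis, neutrophil, growth hormone axis and pericentral genes to the left.

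Acute phase proteins, which the liver secretes under inflammatory cytokines, rose in part. Of 20 tested 11 rose and none fell (median 0.93). Besides Lcn2, Saa3 was at 21.9 to 182 (median 43.8) in saline and 297 to 672 (median 383) in NDMA livers (2.99 ± 0.34, adjusted p = 2.37e-05) and Saa1 at 69.3 to 139 (median 95.8) and 515 to 1127 (median 702) (2.83 ± 0.16, adjusted p = 9.56e-12). Orm2 and Orm3, orosomucoids that are near copies of each other, rose by 2.99 and 2.37. Both reached the minimum for a test through the NDMA livers alone. The fibrinogen chain Fgb was not called (-0.17 ± 0.13). In the complement list, also made by hepatocytes, 2 of 16 tested rose and 4 fell, beside 11.1% and 6.71% of all genes tested. The median was 0.00, and with every library at the same total 2 rose and 2 fell. C9, the last component of the membrane pore, was at 226 to 355 (median 272) in saline and 472 to 641 (median 548) in NDMA livers (0.93 ± 0.12, adjusted p = 1.22e-06), while Mbl1, a mannose-binding lectin, fell, with 1022 to 1422 (median 1225) in saline and 462 to 705 (median 585) in NDMA livers (-1.05 ± 0.11, adjusted p = 1.05e-07).

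Hepatocyte genes of the pericentral zone, where NDMA is activated, were lower at day 5. Of 7 hepatocyte markers tested 1 fell and none rose, and with every library at the same total none fell, but their summed level did not overlap between the groups (given above), and the part of the hepatocyte share in the lists below was not tested. Of 18 genes 16 were tested, 11 fell and none rose (median -1.03). Glul, the glutamine synthetase of the hepatocytes that line the central vein, was at 788 to 1156 (median 943) in saline and 123 to 248 (median 169.5) in NDMA livers (-2.46 ± 0.13, adjusted p = 6.09e-13). Cyp2c29 fell, with 8035 to 12678 (median 10029) in saline and 1432 to 4781 (median 2941) in NDMA livers (-1.79 ± 0.22), and Cyp2e1, the activating enzyme, by 2.31 ± 0.40 on the log2 scale. In each of these the groups stood apart, and the NDMA livers differed among themselves more in Cyp2e1 (383 to 2246) than in Glul. Of the genes of the Wnt pathway that maintains the zone, Lgr5 was at 2.56 to 7.07 in saline and 0 to 2.61 in NDMA livers and below the mean needed for a test. Genes of the periportal zone had 3 of 15 tested higher and none lower, beside 11.1% and 6.71% of all genes tested, and a median of 0.10. The 3 were Pigr, the transporter of IgA (1.45 ± 0.20), Hsd17b13, a lipid droplet enzyme (1.37 ± 0.14), and Ctsc, a lysosomal protease (1.25 ± 0.13). The urea cycle genes Ass1 (-0.39 ± 0.16) and Cps1 (-0.34 ± 0.13) were not called.

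Genes of bile acid synthesis and transport were mostly lower where they were called. Of 18 tested 8 fell and 1 rose (median -0.52), and with every library at the same total 5 fell. Slco1b2 and Slc10a1, the uptake carriers OATP1B2 and NTCP, fell, Slco1b2 from 3211 to 4096 (median 3649.9) in saline to 879.7 to 2048 (median 1703) in NDMA livers (-1.17 ± 0.14, adjusted p = 1.71e-06) and Slc10a1 from 2200.2 to 2937 (median 2791) to 994 to 1545 (median 1399) (-1.01 ± 0.12, adjusted p = 5.54e-07). Hsd3b7, an enzyme of bile acid synthesis, fell by 1.21 ± 0.12, while Cyp7a1, the rate-limiting enzyme, was not called (257 to 1117 in saline and 181 to 889 in NDMA). Abcb4, the phospholipid pump of the bile canaliculus, was the gene that rose, with 86.6 to 117 (median 108) in saline and 133.7 to 259.8 (median 221) in NDMA livers (0.94 ± 0.14, adjusted p = 1.78e-05).

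Enzymes of detoxification moved in both directions. Of 20 tested glutathione S-transferases 8 rose and 2 fell (median 0.32), beside 11.1% and 6.71% of all genes tested. The rise of Gsta1 and Gsta2 stood out. Gsta2 was at 4.93 to 51.03 (median 19.01) in saline and 159 to 453 (median 302) in NDMA livers (3.84 ± 0.47, adjusted p = 6.69e-05), and as a near copy of Gsta1 it may share reads with it. Gstm3 rose by 1.59 ± 0.37 with overlap, and Gstt2 by 1.46 ± 0.13. Of the Nrf2 targets of redox defence 8 of 18 tested rose and none fell (median 0.58). Ephx1, the microsomal epoxide hydrolase, was at 388 to 526 (median 431) in saline and 1819 to 3091 (median 2214) in NDMA livers (2.37 ± 0.12, adjusted p = 5.20e-13), Srxn1, the reductase of overoxidized peroxiredoxins, at 9.11 to 19.2 (median 12.2) and 59.98 to 106 (median 79.3) (2.51 ± 0.19, adjusted p = 4.86e-10), and the quinone reductase Nqo1 at 30.4 to 51.2 and 109 to 225 (1.97 ± 0.17). Gclm, of glutathione synthesis, was not called (0.08 ± 0.21). The antioxidant response letters were in 6 of the 15 promoters of this list, against 15.1% of promoters of genes tested.

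Cholesterol synthesis and uptake had the lowest median of the metabolic lists, -2.51, with 16 of 18 tested genes lower and none higher, and 4 of the 18 reached the minimum through the saline livers alone. Fdps, farnesyl diphosphate synthase, was at 924, 656, 145, 54.2, 724 and 62.2 in saline livers 18, 24, 30, 36, 42 and 48, and at 11.8 to 28.7 (median 17.04) in NDMA livers (-3.71 ± 0.66, adjusted p = 0.00146). Hmgcs1, which makes the precursor HMG-CoA, was at 3142, 1661, 339, 187, 2155 and 175 in the same livers and at 55.9 to 85.5 (median 72.3) in NDMA livers (-3.27 ± 0.63, adjusted p = 0.00252). The saline livers spread over more than a 10-fold range, with livers 18, 24 and 42 high and 30, 36 and 48 low in both genes, and the NDMA livers lay in a narrow range below all of them. The other named genes were Cyp51 (-3.74 ± 0.69), Sqle (-3.69 ± 1.10) and Fdft1 (-3.45 ± 0.76), of which the last 2 overlapped between the groups, and Sqle was no longer called with blocks of sample numbers. Thrsp, below, was likewise high in saline livers 18, 24 and 42 and low in 36 and 48, but high in 30.

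Of 15 tested genes of fatty acid synthesis 8 fell and none rose (median -0.68). Thrsp, a nuclear protein that responds to thyroid hormone and carbohydrate, was at 49.4 to 2768 (median 1226) in saline and 6.23 to 128 (median 40.8) in NDMA livers (-4.27 ± 0.94, adjusted p = 0.006), with overlap, and Fasn, the fatty acid synthase, at 8.96 to 66.5 (median 27.1) and 0 to 7.57 (median 2.14) (-3.12 ± 0.45, adjusted p = 1.35e-05). Of the genes tested, Fasn and Mlxipl reached the minimum through the saline livers alone. Pklr, the liver pyruvate kinase, fell by 1.61 ± 0.20. In the reverse pathway, fatty acid oxidation and ketogenesis, 6 of 20 tested genes rose, none fell and the median was 0.06. Those that rose included Fgf21, a fasting hormone (2.58 ± 0.35), Vnn1, a pantetheinase (1.98 ± 0.20), and the omega-hydroxylases Cyp4a14 and Cyp4a10 (1.22 ± 0.30 and 1.22 ± 0.34), while Cpt1a, which gates entry of fatty acids into mitochondria, was not called (0.48 ± 0.15).

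Genes of lipid handling moved apart from each other. Of 10 tested lipid droplet genes 4 rose and 1 fell (median 0.35). Besides Cidec, Apoa4, an apolipoprotein, rose, with 28.8 to 52.2 (median 36.2) in saline and 149 to 842 (median 367) in NDMA livers (3.25 ± 0.30, adjusted p = 1.22e-06), the fatty acid transporter Cd36 by 1.47 ± 0.17 and the droplet coat Plin2 by 0.99 ± 0.17. Fabp1, the abundant fatty acid binding protein of the hepatocyte, fell, with 39266 to 92634 (median 72764) in saline and 17402 to 28446 (median 22498) in NDMA livers (-1.54 ± 0.19, adjusted p = 9.49e-06). Apoa4 and Fabp1 did not overlap between the groups, in opposite directions.

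Of 12 tested genes of the growth hormone and IGF axis 8 fell and 2 rose (median -1.31). With blocks of sample numbers as a correlated block 6 fell and 1 rose, and with libraries at an equal total 6 fell and 2 rose. Ghr, the growth hormone receptor, was at 339 to 443 (median 378) in saline and 106 to 187 (median 149) in NDMA livers (-1.37 ± 0.13, adjusted p = 9.73e-09), and the related prolactin receptor Prlr fell, with 456 to 591 (median 488) in saline and 88.7 to 196 (median 147) in NDMA livers (-1.74 ± 0.14, adjusted p = 1.64e-09). Igf1, the growth factor made under growth hormone, was at 3127 to 4771 (median 3772) in saline and 1487 to 1816 (median 1668) in NDMA livers (-1.24 ± 0.10, adjusted p = 1.99e-09). In these 3 genes all NDMA livers lay below all saline livers. Igfals, the subunit that stabilises circulating IGF, fell, with 405 to 585 (median 525) in saline and 36.02 to 124 (median 83.6) in NDMA livers (-2.70 ± 0.22, adjusted p = 3.04e-08) and the carrier Igfbp3 by 1.95 ± 0.28. Socs2, a feedback inhibitor, was called at -1.47 ± 0.50 but lost its call in 17 repeats with another setting or with libraries left out. Mup20, the urinary protein darcin, moved the other way, from 2.56 to 23.01 (median 10.9) to 89.3 to 310.3 (median 159) (4.07 ± 0.38, adjusted p = 1.86e-06), and it belongs to a family of near copies between which reads may be split. The other gene that rose was Igfbp2, an IGF carrier (1.10 ± 0.32), with overlap between the groups.

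Of 19 tested genes of branched-chain amino acid catabolism 8 were called lower, beside 6.71% of all genes tested. None was called higher, and the median was -0.50. Mccc2, a subunit of methylcrotonyl-CoA carboxylase, was at 173 to 309 (median 181) in saline and 57.3 to 155 (median 86.1) in NDMA livers (-1.15 ± 0.19, adjusted p = 6.44e-05), and Bckdha, of the branched-chain keto acid dehydrogenase, fell by 0.89 ± 0.17. With libraries at an equal total 4 of the list were lower.

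Genes of fetal liver and of damaged hepatocytes rose in 7 of 9 tested, with 1 lower and a median of 2.81. Beyond Ubd and Tff3 these included Ly6d (4.31 ± 0.33), the fetal albumin-like protein Afp and the stress hormone Gdf15. Afp was at 18.1 to 243 (median 47.98) in saline and 244 to 912 (median 435) in NDMA livers (2.93 ± 0.58, adjusted p = 0.00295). Gdf15 was at 1.20 to 4.56 (median 2.44) and 14.2 to 62.7 (median 19.4) (2.81 ± 0.34, adjusted p = 7.16e-07). Ubd and Gdf15 reached the minimum for a test through the NDMA livers alone. The groups touched closely in Afp, where the highest saline liver was just under the lowest NDMA liver, and Gdf15 was high in all NDMA livers. H19, another fetal transcript, was not called (0.90 ± 0.43). The remaining called genes were Cdkn1c, Cd63 and Gpc3, of which 1 fell. Igf2, Dlk1 and Plagl1 of the list were below the mean needed for a test. The largest rises of the list were in Ubd, Tff3 and Ly6d, so its count does not show that fetal genes rose as a set. Stress response genes rose in 6 of 13 tested (median 0.77), among them Ddit3, the factor CHOP of the unfolded protein response (1.26 ± 0.22), and Asns, an ATF4 target (1.21 ± 0.16), while the chaperone Hspa5 was not called (-0.40 ± 0.14). Annexins, S100 proteins and tubulins rose in 12 of 21 tested with 1 lower (median 0.72), led by the small calcium-binding proteins S100a11 and S100a6. S100a11 was at 28.8 to 37.9 (median 29.9) in saline and 107 to 243 (median 149.7) in NDMA livers (2.33 ± 0.16, adjusted p = 8.81e-11), and S100a6 rose by 2.01 ± 0.19.

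Counts for genes of the other liver cells are given beside 11.1% higher and 6.71% lower among all genes tested. Of the sinusoidal endothelial markers 2 of 10 tested rose and 2 fell (median -0.26), with the scavenger receptor Stab2 lower (-1.13 ± 0.24) and Lyve1 higher (0.77 ± 0.16). Of the stellate cell and fibroblast genes 3 of 11 tested rose and 3 fell (median -0.25). Timp1, an inhibitor of matrix proteases, was at 0 to 5.96 (median 2.73) in saline and 9.78 to 28.7 (median 15.6) in NDMA livers (2.38 ± 0.35, adjusted p = 1.30e-05), and smooth muscle actin, Acta2, rose by 1.45 ± 0.28. Timp1 reached the minimum for a test through the NDMA livers alone. Reln, a marker of quiescent stellate cells, fell by 1.51 ± 0.27. Col3a1, a fibrillar collagen, was called lower (-0.83 ± 0.19) with overlap, and the collagen genes Col1a1 and Col1a2 were not called (0.00 and -0.25). Spp1, osteopontin, which bile duct cells make in the healthy liver, fell, with 238 to 342 (median 318) in saline and 92.6 to 166 (median 109.8) in NDMA livers (-1.41 ± 0.13, adjusted p = 1.46e-08), and Krt7 and Krt19 were below the mean needed. Of the genes of TGF-beta signalling and matrix turnover 3 of 10 tested rose and 1 fell (median 0.09), namely Mmp12, a macrophage elastase (2.99 ± 0.69), the galectin Lgals1 (2.02 ± 0.13) and vimentin, Vim (1.20 ± 0.29), against Ecm1, an extracellular matrix protein (-2.19 ± 0.22). Of the pancreas genes only Cela1 was tested and it was not called (-0.52 ± 0.16).

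No gene differed between the sexes in its response at an adjusted p under 0.05 by limma (0% called), with 443 genes at an unadjusted p under 0.05. Tested alone, the 4 NDMA and 3 saline females gave 605 genes higher (6.52%) and 322 lower (3.47%), together 9.98% of 9286 tested. The males gave 777 higher (8.34%) and 442 lower (4.75%), together 13.1% of 9311. With 3 saline mice of each sex this does not show that the sexes responded alike, and the count rose to 24 when saline liver 24 was left out and to 1 without saline liver 42. With blocks of 12 sample numbers as a term it was 12.

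The responses at day 1, day 2 and day 5 were fitted together over the 45 Mgmt-/- libraries of the same library batch, 16, 15 and 14 in this order. Of 9571 genes tested, 18.5% were called at day 1 (9.96% higher, 8.59% lower), 19.9% at day 2 (12.1% and 7.83%) and 17.3% at day 5 (10.8% and 6.44%). Of the 1633 genes called at day 5 that this fit tested, 992 were also called at day 1 and 1131 at day 2 in the same direction. The difference between the responses was called for 51 genes between day 5 and day 1 (0.533%), 28 higher (0.293%) and 23 lower (0.24%) at day 5. It was called for 3 between day 5 and day 2 (0.0313%), 2 higher (0.0209%) and 1 lower (0.0104%). The tests of both differences share the day 5 libraries, and at unadjusted p under 0.05 they gave 996 and 616 genes. With 1 library left out the count against day 1 ran from 15, without saline liver 18, to 103, without saline liver 48. The blocks of 12 sample numbers hold libraries of several days, and with them as a term the test gave 252 genes against day 1 (144 higher, 108 lower) and 10 against day 2 (7 and 3).

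Of the 28 genes whose response was higher at day 5 than at day 1, 5 are named. Cyp4a14 had log2 fold changes of -0.74, 0.34 and 1.22 at days 1, 2 and 5, a difference from day 1 of 1.96 ± 0.34 (adjusted p = 0.00262), and Cyp4a10 had -0.49, 0.66 and 1.22. Abhd15, a lipase-like protein of insulin signalling, went from -1.68 to 0.28 (difference 1.96 ± 0.39, adjusted p = 0.00502), so that its fall of day 1 was gone at day 5. The T cell chemokine Ccl5 was called higher at each day, at 1.01, 1.84 and 2.69 (difference 1.69 ± 0.41, adjusted p = 0.0423). Defb1, a beta-defensin of epithelia, was called at day 5 but not before (-0.39, 0.48 and 1.31). In repeats with another setting or with libraries left out, Ccl5 lost its call against day 1 in 12, Cyp4a10 and Defb1 in 9 each and Cyp4a14 and Abhd15 in none.

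Lower at day 5 than at day 1 were the responses of A1bg, Camp, Saa2, Cyp2c69 and Cyp2a4. Saa2, an acute phase protein, eased from 5.19 at day 1 to 2.88 and 2.20 (difference -2.98 ± 0.64, adjusted p = 0.0218) and stayed called at day 5. Cyp2a4 went from 2.82 to 1.84 and 0.33 and was no longer called (-2.49 ± 0.42, adjusted p = 0.00137). Cyp2c69 deepened from -0.99 to -2.21 and -3.77 (-2.78 ± 0.45, adjusted p = 0.00137) and Camp from -1.11 to -2.54 and -4.60. A1bg, a plasma glycoprotein, was at 357, 279, 244, 25.5, 338 and 4.26 in the saline livers in the order above and at 0 to 7.03 (median 0.607) in NDMA livers, with log2 fold changes of -0.50, -2.39 and -5.92. Saline livers 36 and 48 lay far below the other saline livers in A1bg, and liver 48 lay within the NDMA range. In the same repeats the difference lost its call in 12 for A1bg, in 7 for Camp, in 3 for Saa2 and in 1 each, with all 16 libraries, for Cyp2c69 and Cyp2a4.

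Against day 2, Lect2, a hepatocyte chemotactic factor, had recovered from -2.42 to -1.21 (1.21 ± 0.24, adjusted p = 0.0378) and Etnk2, an ethanolamine kinase, from -1.23 to -0.14 (1.08 ± 0.23, adjusted p = 0.0378). The remaining gene was Ltf, whose response went from 1.97 to -2.15 (-4.11 ± 0.78, adjusted p = 0.0378). In lists, the cholesterol genes had medians of -0.34 at day 1, -1.23 at day 2 and -2.51 at day 5, and the cytotoxic cell genes 1.95, 2.70 and 3.08, whereas p53 targets of cell death went from 1.37 and 1.24 to 0.93. Pericentral genes stood at -1.63, -1.80 and -1.03. These medians are descriptions with no test of their own. The cholesterol median at day 5 rests on saline livers whose summed level ran from 1586 to 12715, against 1029 to 1210 in NDMA livers. The 3 calls against day 2 rest on single libraries. No gene was called without NDMA liver 78, 84 or 96 or without saline liver 18, 42 or 48, each left out alone.

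**Figure D3:**
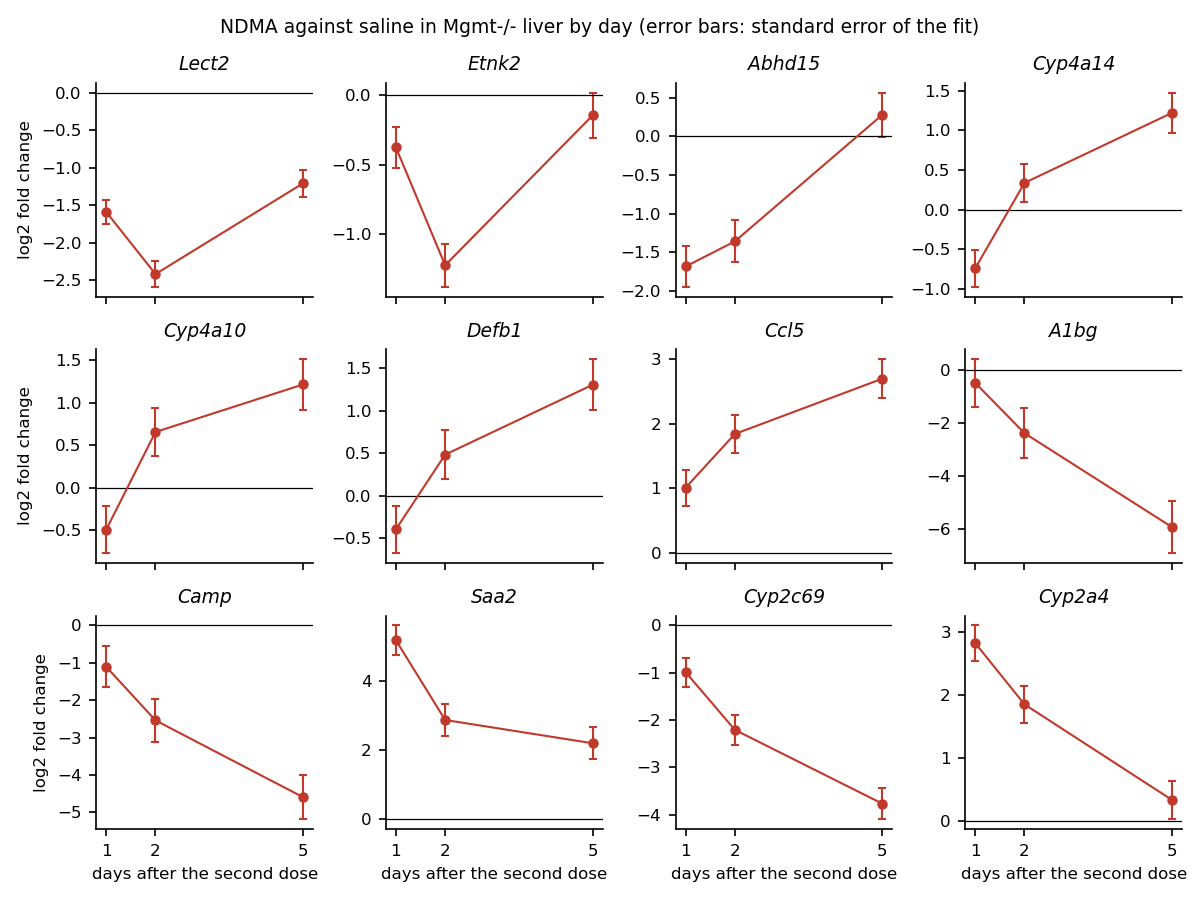
Log2 fold change of NDMA against saline in Mgmt-/- liver (vertical axis, with standard errors) at 1, 2 and 5 days after the second dose for the 12 genes named by the test of the difference between days. Lect2, Etnk2 and Abhd15 return toward 0 at day 5, Ccl5 and the Cyp4a genes climb, and Cyp2c69, Camp and A1bg fall further.

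At the same day the response of WT mice, which carry Mgmt and both reporters, was compared from whole reads recovered for 8 NDMA and 7 saline WT livers with edgeR. The WT livers alone gave 192 genes higher (2.22%) and 120 lower (1.39%) by limma, together 3.61% of 8654 tested. The response differed by genotype in 247 of 8378 genes tested (2.95%), higher in Mgmt-/- in 165 (1.97%) and lower in 82 (0.979%), and 1315 genes were at unadjusted p under 0.05. Of the 165, 130 were themselves called higher in Mgmt-/- livers, and of the 82, 65 were called lower. In WT mice at day 5 sex and library batch coincide, and the WT batches are not the batch of the Mgmt-/- livers. The WT libraries held 202626 to 2131042 reads, against 2212244 to 4959721 in the Mgmt-/- libraries used. Depth and batch thus cannot be told apart from genotype, in the calls of WT livers alone or in the difference. The lowest depth, 202626 reads, was that of 1 WT NDMA library. Without that library 313 genes differed by genotype (189 higher, 124 lower). The count was 407 by DESeq2, 178 by limma on log values and 91 with all 16 Mgmt-/- libraries of day 5.

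These differences are given on the scale of reads, as edgeR fits them. Among called genes with a mean of at least 20 over the 14 Mgmt-/- livers, Ubd had the largest positive difference. Its log2 fold change was 6.89 in Mgmt-/- and 3.73 in WT livers, where it was also called, and the difference was 3.74 (edgeR adjusted p = 0.000647). Tff3 rose by 4.33 in Mgmt-/- and was not called in WT at 1.59 (difference 3.43, edgeR adjusted p = 5.06e-05). Gbp4 (4.17 and 0.87, difference 3.33, edgeR adjusted p = 0.0017) was next. For Mup20 the fold changes were 4.07 in Mgmt-/- and 0.50 in WT livers, with a difference of 3.14 (edgeR adjusted p = 0.000616), and for Apoa4 3.25 and 0.36, with a difference of 3.04 (edgeR adjusted p = 1.81e-06). The GTPases had a median response of 0.42 in WT livers against 2.49, and the difference was called for 9 of the 12 tested.

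Among the same genes the largest negative differences were in A1bg (-5.92 in Mgmt-/- and -0.56 in WT, difference -6.22, edgeR adjusted p = 0.000276) and in 3 neutrophil genes and Cd209f. Camp had fold changes of -4.60 in Mgmt-/- and 0.20 in WT livers (difference -5.36, edgeR adjusted p = 5.27e-06), Ngp -3.96 and -0.03 (difference -4.04, edgeR adjusted p = 4.34e-06) and S100a9 -2.18 and 0.55 (difference -2.92, edgeR adjusted p = 0.000202). None of these was called in WT livers alone. Cd209f, a lectin of macrophages, fell in Mgmt-/- mice, with 67.4 to 125 (median 94.4) in saline and 3.64 to 18.2 (median 13.1) in NDMA livers (-2.94) and was at 0.27 in WT (-3.03, edgeR adjusted p = 1.41e-05). All 5 neutrophil genes tested in both genotypes differed, and the WT median of the list was 0.55. In the growth hormone axis 5 of 12 genes had a lower response in Mgmt-/- livers and 1 a higher one, with a WT median of -0.18.

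In several other lists the genes that differed were all higher in Mgmt-/- livers, beside 1.97% higher among all genes tested. The difference was called for 4 of 6 genes of cytotoxic cells, whose median response was 3.08 in Mgmt-/- and 1.41 in WT livers, and for 8 of 23 type I interferon effectors (1.55 and 0.56). It was called for 4 of 16 genes of class I presentation (1.22 and 0.24), 3 of 13 of interferon signalling (0.70 and -0.05) and 3 of 11 chemokines (2.82 and 1.07). Outside the immune lists, 6 of 20 acute phase genes (0.93 and 0.29), 5 of 17 Nrf2 targets (0.58 and -0.40), 4 of 20 genes of fatty acid oxidation (0.06 and -0.15) and 3 of 9 fetal and damage genes (2.81 and 1.16) differed, as did 3 of 21 annexin, S100 and tubulin genes (0.72 and 0.30).

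Cdkn1a rose by 4.13 in Mgmt-/- and 3.98 in WT livers, and the difference of 0.72 was not called (edgeR adjusted p = 0.613). In the p53 arrest list 2 of 11 genes differed, both higher in Mgmt-/-, among them Mdm2, the p53 ubiquitin ligase (2.71 and 0.29, difference 1.97, edgeR adjusted p = 0.00952). No difference was called among the 18 cholesterol genes, whose medians were -2.51 and -2.29, or the 6 tested class II genes (2.54 and 1.82), and 1 of 16 pericentral genes differed (-1.03 and -1.15). A difference that was not called does not show that the genotypes responded alike.

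**Figure D4:**
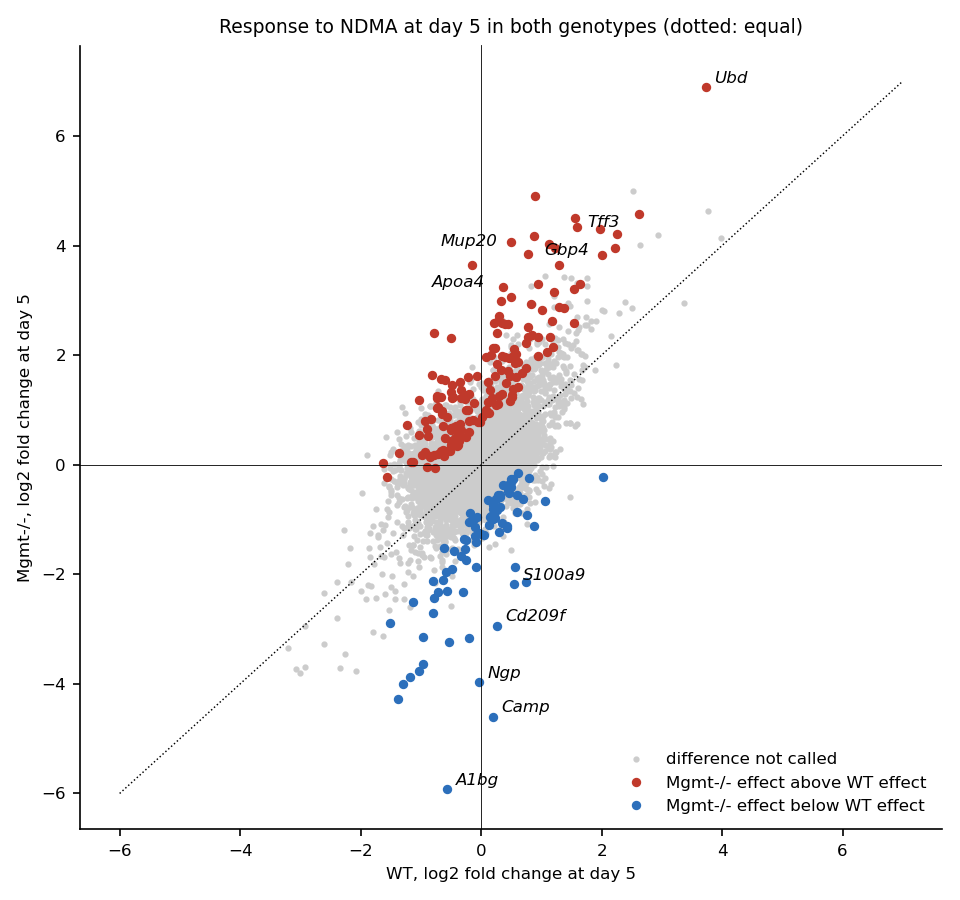
Log2 fold change at day 5 in WT (horizontal) and Mgmt-/- liver (vertical) for each gene tested in both, with genes whose difference was called in red (higher in Mgmt-/-) or blue (lower) and the 10 named genes labelled. The dotted line marks equal responses, with Ubd at the top and A1bg at the bottom.

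The NDMA livers were not uniform. Among genes with an NDMA mean of at least 20 the 6 of largest SD were Cyp2a22, Sult2a2, Scand1, Sash1, Rala and Sult2a3, and none of them was called between the treatments. Rala, a small GTPase, was at 80.1, 69.8, 18.7, 17.8, 54.1, 67.2, 9.005 and 6.99 in NDMA livers 54, 60, 66, 72, 78, 84, 90 and 96, in this order, and at 35.3 to 59.95 (median 56.1) in saline livers. Sash1, a scaffold protein of endothelial and epithelial cells, was at 165, 168, 27.01, 24.3, 144, 141, 45.6 and 18.2 in the same order. In both genes, and in Scand1 (6.19 to 79.8), livers 54, 60, 78 and 84 were high and livers 66, 72, 90 and 96 low, and each set holds 2 females and 2 males. The sets follow the sample numbers in blocks of 12, and what the blocks stand for is not given in the sources used here. With these blocks as a correlated block the comparison of the treatments gave 921 genes higher and 545 lower, beside 1037 and 624 without it. Without livers 66, 72, 90 and 96 the comparison with saline gave 679 genes higher and 455 lower, and without the other 4 NDMA livers 934 and 739.

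In the 3 other genes 1 or 2 NDMA livers stood apart. Cyp2a22, a cytochrome P450, was at 0 in NDMA liver 96 and at 31.9 to 83.9 in the other 7, and it was also at 0 in saline livers 24, 30 and 42 and at 131, 452 and 244 in 18, 36 and 48. Sult2a2, a sulfotransferase for steroids, was at 152 and 285 in NDMA males 54 and 90 and at 10.4 to 21.9 in the other 6 NDMA livers. Sult2a3, a near relative, was at 1.39 in NDMA liver 66 and at 16.8 to 40.4 in the others. Cyp2a22 and both sulfotransferase genes belong to families of similar sequence, between which reads may be split.

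**Figure D5:**
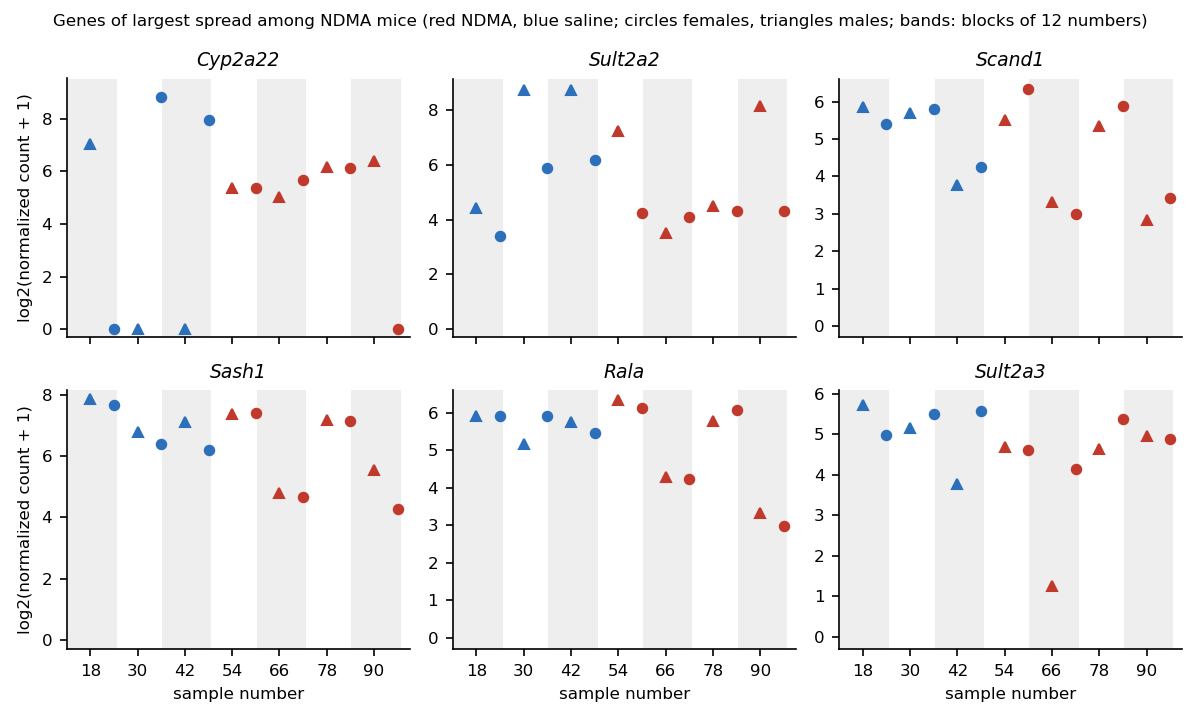
Normalized counts, as log2(value + 1), of the 6 genes of largest spread among NDMA mice against the sample number in the labels, with NDMA in red, saline in blue, circles for females, triangles for males and grey bands marking alternate blocks of 12 numbers. Rala, Sash1 and Scand1 step up and down with the blocks among the NDMA livers.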

How the data were processed

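RNA of each liver was read as a 3′ digital gene expression library. Per the paper's methods and the labels, the authors aligned reads with STAR to GRCm38 (mm10), used ESAT for counts per gene and divided each library by a DESeq2 size factor within each genotype. Tool versions, and whether unique molecular identifiers were counted, are not given in the sources used here. The deposited values were treated as a signal of gene counts divided by size factors. In all 16 Mgmt-/- day 5 libraries 100% of values were whole multiples of 1 read (within 0.05 reads), so reads were recovered, 2212244 to 4959721 per library among the 14 used. Low genes are limited by these depths, and intervals and floors of 3 reads cover counting error only.

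Genes with a mean of at least 5 were tested with limma 3.58.1 (R 4.3.3) on log2(normalized count + 1) for treatment with sex as a term, and p-values were adjusted by Benjamini-Hochberg over all genes tested. A gene was called where the adjusted p was under 0.05 and the log2 fold change was over 0.58 in either direction (for the sex term, the adjusted p alone). Treatment by sex, treatment by day (45 libraries, 1 library batch) and treatment by genotype were interaction terms, the last by the edgeR 4.0.16 quasi-likelihood test with TMM on recovered reads of both genotypes, whose size factors were set separately. The recovered reads of day 5 gave 1660 calls by edgeR against 1661 by limma. DESeq2 1.42.0, other pseudocounts (0.5 and 5), filters, scalings, blocks of sample numbers and leaving out libraries were alternatives. The statistical code was tested on simulated data. Promoters came from RefSeq (GRCm38.p6), and 9187 genes tested matched 1 GENCODE gene. Other software was Python 3.11.15 with numpy 2.4.6, pandas 2.3.3 and scipy 1.17.1.

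The libraries, gene lists and tests were chosen with earlier results of these data known. Genes were named by rule: among called genes without overlap and with a mean of at least 20 in the higher group, the 8 of largest rise and fall, without symbols of the Gm or Rik form; up to 5 called genes of each list and uncalled members with their values; up to 5 per term and direction with a mean of at least 20; and the 6 of largest spread among NDMA livers. Ltf as a time term, Igf1, Ghr, Mdm2, Hmgcs1, Cxcl12, Igfbp2, Col3a1 and Lyz2 were named after their values were seen, as were gene families in the closing section. Some genes that the rule takes are not reported here. The labels give no batch within day 5, and the 2 saline libraries with high Kap were left out of all tests but an alternative.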

Additional observations from a re-analysis of the deposited data

Results flagged for a closer look

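In 7 of 80 groups checked, over 37 genes, 1 liver stood far from the rest of its group. On the log2(normalized count + 1) scale these were Gsta1 at 1.497 in saline liver 42 with the other saline livers at 0, Lcn2 at 6.386 in saline liver 48, Abhd15 at 3.751 in NDMA liver 66 (the lowest), Defb1 at 7.662 in NDMA liver 90 (the highest), A1bg at 3.006 in NDMA liver 72 (the highest), Cyp2a22 at 0 in NDMA liver 96 and Sult2a3 at 1.254 in NDMA liver 66 (the lowest). The cutoff gives about 1 in 20 by chance in groups not picked on their spread. Cyp2a22 and Sult2a3 were picked for their spread among NDMA livers, and Gsta1 in saline rests on 2 reads. The 7 of 80 therefore cannot be set against that rate.

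The response of 10 named genes differed between Mgmt-/- and WT livers by the edgeR interaction test. It was higher in Mgmt-/- by 3.74 in Ubd, 3.43 in Tff3, 3.33 in Gbp4, 3.14 in Mup20 and 3.04 in Apoa4 on the log2 scale. It was lower in Mgmt-/-, with differences of -6.22 in A1bg, -5.36 in Camp, -4.04 in Ngp, -3.03 in Cd209f and -2.92 in S100a9. The WT libraries are of other batches, so batch and genotype cannot be told apart.

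The response also differed between day 5 and the earlier days by the limma interaction tests. Against day 2 the differences were 1.21 in Lect2 and 1.08 in Etnk2. Against day 1 they were 1.96 in Abhd15, 1.96 in Cyp4a14, 1.71 in Cyp4a10, 1.70 in Defb1 and 1.69 in Ccl5, and -5.42 in A1bg, -3.49 in Camp, -2.98 in Saa2, -2.78 in Cyp2c69 and -2.49 in Cyp2a4.

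Outside the comparisons, Kap was at 6147 and 7562 normalized counts in the 2 saline libraries left out, which are labelled liver but held kidney genes at high and hepatocyte genes at low levels, with at most 1.80 in the saline livers kept.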

How the results depend on the processing

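The counts of day 5 calls stayed within 1.5 times under edgeR (953 higher, 707 lower), DESeq2 (970 and 788), pseudocounts of 0.5 and 5, no filter, treatment alone and correlated number blocks. They left that range in 5 cases, 1005 calls with all 16 libraries and 306 of them lower, 412 lower at the same total, 634 higher at a mean of at least 20 (fewer genes tested) and 679 higher without NDMA livers 66, 72, 90 and 96. With 1 library left out there were 1520 to 1689 calls (952 to 1053 higher, 568 to 643 lower). The 2 libraries with high Kap turned 10 named genes positive, Serpina1c to 1.56, Clec4g to 1.15, Mbl1 to 0.90, C8b to 1.17, Masp1 to 0.76, Cyp2c29 to 0.63, Slco1b2 to 0.96, Slc10a1 to 0.46, Slco1a4 to 1.04 and Fabp1 to 0.75. Of 2318 single gene values under alternatives other than leaving out 1 library, these 10 included, 2202 kept their direction and side of the threshold and 106 kept their direction but lost the call, as did 94 of 3048 with 1 library left out. Socs2 lost its call in 17 repeats, Sqle and Mcm2 in 10 each, Pdgfrb in 8 and Tk1 in 6.

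For sex by treatment, number blocks as a term gave 12 genes (4 higher, 8 lower in males) and leaving out 1 library 0 to 24 (0 to 3 higher, 0 to 21 lower). Against day 2 there were 0 genes with all 16 libraries (0 higher, 0 lower), 1 higher and 2 lower at the same total, 1 without a filter (0 higher), 10 with number blocks (7 and 3), 7 with a pseudocount of 5 (5 and 2) and 0 to 6 with 1 library left out (0 to 4 higher, 0 to 2 lower), the most without saline liver 36 and 0 without any 1 of 6 livers. Against day 1 there were 27 with all 16 libraries (8 lower), 102 with all day 1 batches (66 and 36), 252 with number blocks (144 and 108) and 15 to 103 with 1 library left out (9 to 59 higher, 6 to 44 lower), 15 without saline liver 18, 16 without 42, 20 without 24, 29 without NDMA liver 78, 32 without 96, 33 without saline liver 30 and 103 without 48. For genotype by treatment there were 407 by DESeq2 (250 and 157), 91 with all 16 libraries (62 and 29), 103 higher by limma on log values and 178 to 313 with 1 library left out (120 to 189 higher, 56 to 124 lower), the most without the WT library of lowest depth. Where no construction shows it, the cause was not tested. Among the genes named against earlier days, A1bg, Ccl5 and Etnk2 lost their call in 12 repeats each, Lect2 in 10, Cyp4a10 and Defb1 in 9 each and Camp in 7, and Abhd15 in none. No paired analysis was possible because no sample number is shared by a saline and an NDMA library, and the blocks of 12 numbers given above stood in for it.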

Other observations

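Gene families, chosen by symbol after the data were seen, add to the lists above. Their counts are given beside 11.1% higher and 6.71% lower among all genes tested. Of 58 tested cytochrome P450 genes 7 rose and 23 fell (median -0.38), of 12 carboxylesterases 1 rose and 7 fell (median -1.11) and of 13 sulfotransferases 1 rose and 5 fell (median -0.92). Against the trend Cyp17a1, the steroid 17-hydroxylase, was at 15.4 to 38.7 in saline and 62.7 to 132 in NDMA livers (1.62 ± 0.19, limma adjusted p = 5.54e-07), and Ces2e at 546 to 616 and 1582 to 2564 (1.81 ± 0.11, limma adjusted p = 7.78e-12). In both genes every NDMA liver was above every saline liver. Of 13 tested collagens none rose and 5 fell (median -0.41), led by Col5a1.

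Of 8 tested Ly6 genes, small membrane-anchored proteins, 6 rose and 1 fell (median 2.76). Ly6a, the stem cell antigen Sca-1, was at 8.99 to 17.3 in saline and 197 to 317 in NDMA livers (4.21 ± 0.16, limma adjusted p = 5.23e-15). Of 5 tested keratins 3 rose (median 1.23), Krt20, which is made by gut epithelium, with 0.6 to 10.2 in saline and 16.95 to 56.6 in NDMA livers (3.08 ± 0.34), Krt18 (1.28 ± 0.14) and Krt8, the latter being the keratin pair of hepatocytes. The log2 fold change of Krt18 was -0.23 in WT livers and the difference of 1.56 was called (edgeR adjusted p = 0.000561). The schlafen genes rose in 3 of 4 tested (median 1.68) and the actin genes in 3 of 3 (median 1.45). Of 63 tested cytosolic ribosomal protein genes 4 rose and none fell, beside 11.1% and 6.71% of all genes tested (median 0.12), and Rps27l, a p53 target among them, rose by 0.88 ± 0.10. Of 182 tested solute carriers 15 rose and 25 fell (median -0.03), beside the same shares.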
